A study of Mus musculus with 29 samples.

Results

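Bcam encodes the basal cell adhesion molecule, a receptor of the immunoglobulin superfamily on the cell surface that binds the laminin chain made from Lama5. It was followed here together with 8 laminin chain genes (Lama2, Lama3, Lama4, Lama5, Lamb1, Lamb2, Lamc1 and Lamc3), so that 9 of the 56748 genes in the counts table were described. Bcam was chosen by its low normalized counts in mutant aortas from 6 weeks of age on, so its genotype differences are given as a description, without a test. The laminin genes were taken as the gene family of its ligand. Among them, Lama2, Lama3 and Lama4 encode alpha chains other than Lama5. Of the 9 genes, 8 passed the filter on low counts (more than 10 counts in more than 10 samples), as did 12353 genes in all. Lama3 did not.

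RNA was sequenced from the aortic arch of male and female mice. Ercc1Δ/- mice carry 1 hypomorphic allele of the DNA repair gene Ercc1, which makes a shortened protein, and 1 loss-of-function allele, in every cell. Controls were Ercc1+/+ littermates (WT), and both genotypes had the same F1 C57BL6J/FVB hybrid background. The 6 groups were WT and Ercc1Δ/- mice fed ad libitum (AL) at 6 weeks (5 and 5 mice), the same genotypes fed AL at 22 weeks (4 and 4 mice), and the same genotypes at 22 weeks under dietary restriction (DR, 5 and 5 mice), which began at 7 weeks and stood at 30% less food from 9 weeks on. A further WT female of 22 weeks on AL (sample 003) was left out because of its low count total, and values with it are given where they change a result. The study left it out as well, for its low counts and also for a diverging expression profile. Each sample carries its own number in the labels and is taken as 1 mouse.

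Laminins are secreted proteins built from 1 alpha, 1 beta and 1 gamma chain. They assemble into the sheet-like core of basement membranes, which surround each smooth muscle cell of the artery wall and underlie its endothelium. Cells hold on to laminin through integrins, dystroglycan and Bcam, and the nidogens, perlecan and type IV collagen join the laminin sheet to the rest of the basement membrane. In arteries, Lama5 and Lama4 encode the alpha chains of endothelial basement membranes, Lama2 an alpha chain best known from muscle, Lamb2 the beta chain typical of vascular smooth muscle, and Lamc1 the gamma chain of most laminins.

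Bcam lies at chr7:19490056-19505165 on the minus strand (GRCm39), about 400 kb from Ercc1, the mutated gene, at chr7:19075881-19090450 on the plus strand. The laminin genes are on other chromosomes. The promoters of Bcam, of its ligand chain Lama5 and of Lamb2, the laminin gene with the highest level, are shown so that the sequences upstream of the receptor and of these laminin genes can be set side by side. They are RefSeq sequences on GRCm38.p6 that run from 190 to 31 bases before the annotated start, written 5′ to 3′ on the strand of the gene. Capitals mark GGGCGG (the GC box) and CACCC on either strand. Bcam is at chr7:19770563-19770722, Lama5 at chr2:180225890-180226049 (both minus strand) and Lamb2 at chr9:108479672-108479831 (plus strand).
Bcam: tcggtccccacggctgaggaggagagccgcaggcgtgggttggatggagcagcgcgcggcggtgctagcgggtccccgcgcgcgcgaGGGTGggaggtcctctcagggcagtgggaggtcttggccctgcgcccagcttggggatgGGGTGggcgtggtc
Lama5: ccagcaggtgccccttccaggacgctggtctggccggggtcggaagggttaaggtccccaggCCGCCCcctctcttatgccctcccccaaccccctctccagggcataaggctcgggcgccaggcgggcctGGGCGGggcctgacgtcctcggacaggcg
Lamb2: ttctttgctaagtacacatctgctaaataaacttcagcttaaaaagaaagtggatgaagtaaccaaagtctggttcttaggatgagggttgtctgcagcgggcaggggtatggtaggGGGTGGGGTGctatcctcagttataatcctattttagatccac

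Bcam held 2 CACCC matches and 0 of GGGCGG, Lama5 held 2 of GGGCGG and 0 of CACCC, and Lamb2 held 2 of CACCC and 0 of GGGCGG. Among all 32851 promoter entries of the same length, 26.0% held at least 1 GGGCGG and 38.8% at least 1 CACCC, so such matches are common. G and C made up 73.8% of the Bcam sequence, 72.5% of the Lama5 sequence and 43.1% of the Lamb2 sequence, against a median of 53.1% over all entries. The receptor gene and its ligand chain thus both had promoters rich in G and C, and Lamb2 did not. These matches describe the letters only. RefSeq entries were found for 5 of the 9 genes.

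Count totals on genes ran from 921167 to 9616382 over the 28 samples, and the mutant samples were the shallower ones at 22 weeks (1294980 to 3855444 on AL, against 3903589 to 9616382 in WT). Levels are normalized counts, which are counts scaled to a common library size. Ercc1, whose reads check the genotype labels, was lower in Ercc1Δ/- mice at 6 weeks (101 ± 33.7 in WT against 41.8 ± 9.17 normalized counts, SD, n = 5 and 5, log2 fold change -1.41, edgeR quasi-likelihood adjusted p = 0.000336), at 22 weeks on AL (115 against 58.9) and on DR (114 against 57.0), and its groups overlapped at 6 weeks only. Smooth muscle markers were abundant in every sample. They moved with genotype, and so did markers of other cell types. The summed level of 8 smooth muscle markers was 117882 to 151145 normalized counts in WT and 87692 to 120978 in Ercc1Δ/- mice at 6 weeks, 117675 to 141183 and 61763 to 95755 at 22 weeks on AL, and 121913 to 158510 and 86567 to 93532 on DR, with 2, 7 and 8 of the 8 markers called lower. Of all tested genes, 1.13%, 6.16% and 7.03% were called lower in these comparisons, and 1.71%, 12.0% and 13.0% in either direction. The sum of 8 macrophage markers was higher in mutants on both diets at 22 weeks (942 to 1421 in WT against 2118 to 3905 on AL, 598 to 1107 against 1372 to 4462 on DR), with 7 and 5 of 8 called higher, against 1 of 8 at 6 weeks (752 to 906 against 910 to 2379). The sum of 10 endothelial markers was 3287 to 3933 against 2589 to 6776 at 6 weeks, 3374 to 4937 against 2757 to 4667 at 22 weeks on AL and 1822 to 3816 against 3706 to 6024 on DR, with 0, 1 and 6 of 10 called higher. The sum of 8 fibroblast markers overlapped between genotypes throughout (10735 to 17529 over all groups, with 0, 2 and 2 of 8 called in either direction). None of the markers of these 4 cell types was at 0 throughout a group. Of the fat, striated muscle, Schwann cell, and mesothelial and epithelial markers, at most 2 a list were called between genotypes, and no lymphocyte marker passed the filter. The Schwann cell marker sum was 217 to 4305 in WT mice at 6 weeks and 185 to 387 in the other groups. In bulk tissue, fewer cells of a type and less RNA per cell cannot be told apart, and the part of cell makeup in the values below was not tested.

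Bcam was expressed at a high and even level in WT aortas and at a lower level in every Ercc1Δ/- aorta. At 6 weeks the WT mice had 4158, 4321, 4481, 4549 and 5194 normalized counts of Bcam, and the Ercc1Δ/- mice had 2239, 2282, 2609, 2741 and 2809.7. At 22 weeks on AL the WT mice had 4684, 4789, 4792 and 4929, and the Ercc1Δ/- mice had 1999.5, 2009, 2215 and 2316. On DR the WT mice had 3384, 4149, 4488, 4522 and 5083, and the Ercc1Δ/- mice had 1412, 1667, 1751, 1919 and 1926. The highest mutant value of all stood below the lowest WT value of all. WT mouse 003, outside these groups, had 2872 normalized counts, just above the highest mutant value, from only 287 raw counts of Bcam.

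**Figure D1:**
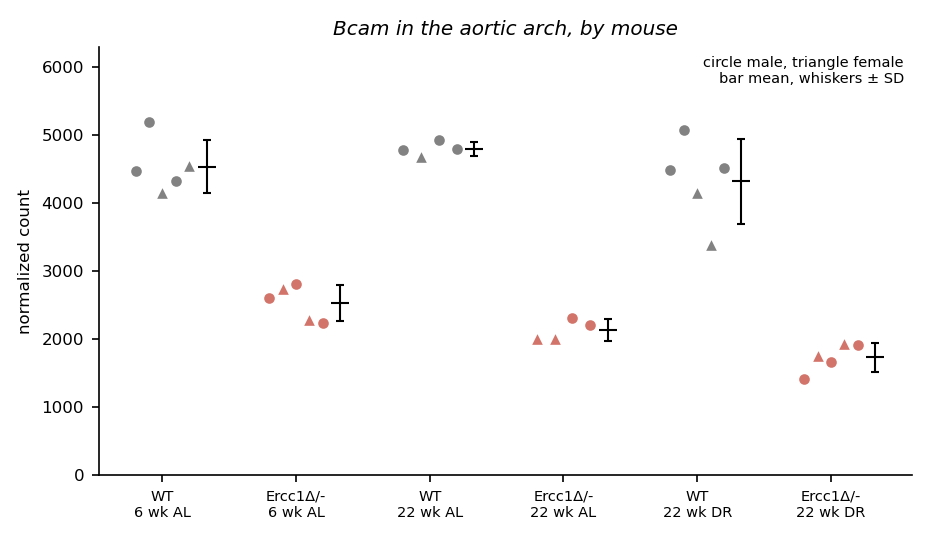
Normalized counts of Bcam (y axis, linear from 0) in each of 28 mice by group (x axis), points for mice, bars for group means and error bars for the SD. The 14 Ercc1Δ/- mice sit between 1412 and 2809.7, all below the 14 WT mice, which sit between 3384 and 5194.

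In the edgeR fit, which includes sex, the level of Bcam in Ercc1Δ/- mice was 56.3% of WT at 6 weeks, 45.0% at 22 weeks on AL and 40.4% on DR, and later percentages of this kind are also fitted values. As log2 fold changes these were -0.83 (SE 0.084), -1.15 (SE 0.096) and -1.31 (SE 0.096), given without a p because they chose the gene. Bcam ranges did not overlap in these 3 comparisons, which is part of the same description because the choice used these values. Of all tested genes, 1.81%, 9.63% and 5.20% were lower without overlap there. In order of mean level the groups were WT at 22 weeks on AL (4799 ± 101, SD, n = 4), WT at 6 weeks (4541 ± 395, n = 5), WT on DR (4325 ± 624, n = 5), Ercc1Δ/- at 6 weeks (2536 ± 262, n = 5), Ercc1Δ/- at 22 weeks on AL (2135 ± 156, n = 4) and Ercc1Δ/- on DR (1735 ± 212, n = 5). The 3 WT groups overlapped one another, as did Ercc1Δ/- mice at 6 and at 22 weeks on AL. With 003 added, the log2 fold change at 22 weeks on AL was -1.05.

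The rule did not name age or diet differences of Bcam within a genotype, and these were tested. They are made of values that the choice used, so these tests are not fully independent of it. Between 6 and 22 weeks on AL, Bcam differed by a log2 fold change of 0.07 in WT (SE 0.089, edgeR adjusted p = 0.918) and -0.25 in Ercc1Δ/- mice (SE 0.090, edgeR adjusted p = 0.123), and neither passed the test, although the latter did without Ercc1Δ/- sample 027 (-0.30, edgeR adjusted p = 0.0416). The genotype difference was larger at 22 weeks than at 6 weeks by -0.32 on the log2 scale (SE 0.13), a description because the rule used both. DR differed from AL by -0.14 in WT (SE 0.098, edgeR adjusted p = 0.591) and by -0.30 in Ercc1Δ/- mice (SE 0.10, edgeR adjusted p = 0.139). In the mutants all 5 DR values lay below all 4 AL values, which was so for 3.02% of all genes, but the difference did not pass the test across all genes. The difference between the diet responses of the genotypes was -0.15 (SE 0.14), again a description because it is made of genotype differences.

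Levels of different genes are compared per kilobase of exon, with all annotated exons of a gene merged into 1 length. This length was 11448 bases for Lama5, 15715 for Lama4 and 17831 for Lama2. The order of the genes and the shares below depend on this choice of length. Over the 28 samples the highest were Lamb2 (985 ± 171 normalized counts per kilobase, SD) and Bcam (940 ± 365). Their order turned with genotype, since the mean of Bcam was above that of Lamb2 in the 3 WT groups (1279, 1352 and 1219 against 1087, 1163 and 1092 at 6 weeks, at 22 weeks on AL and on DR) and below it in the 3 Ercc1Δ/- groups (715, 602 and 489 against 923, 853 and 800.2). After them came Lama5 (114 ± 22.3), Lamc1 (112 ± 24.3), Lamc3 (70.9 ± 16.9), Lama4 (58.7 ± 14.2), Lama2 (32.3 ± 5.42) and Lamb1 (19.7 ± 7.13) over the 28 samples. Lamb2 and Bcam stood apart from the other laminin genes, while Lama5 and Lamc1 did not differ beyond their spread. The chains of epithelial laminins were near the floor, with 0.590 for Lama3 and 0.50 for Lamb3, and Lama1, an alpha chain of early embryos, was at 0.103. Lama3 had 0 to 43 raw counts, over 10 in 9 samples and 0 in 3, so its differences were not tested. Lama1 and Lamb3 did not pass the filter either.

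Within each class most of the level came from 1 or 2 genes. Lamb2 made up 97.1% to 98.7% of the beta chain level per kilobase in the group means, Lama5 50.7% to 59.8% of the alpha chain level, and Lamc1 55.2% to 68.5% of the gamma chain level, with Lamc3 at 31.5% to 44.8%. Lama4 supplied 31.2% ± 0.823 (SD, n = 4) of the alpha chain level in WT at 22 weeks on AL and 22.9% ± 0.647 (n = 4) in Ercc1Δ/- mice. The shares of the 4 WT mice (30.0% to 31.7%) and of the 4 mutants (22.3% to 23.5%) did not overlap. At 6 weeks the Lama4 share was 29.9% in WT and 29.6% in Ercc1Δ/- mice, and on DR its ranges overlapped (27.6% to 35.8% and 19.5% to 30.5%).

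**Figure D2:**
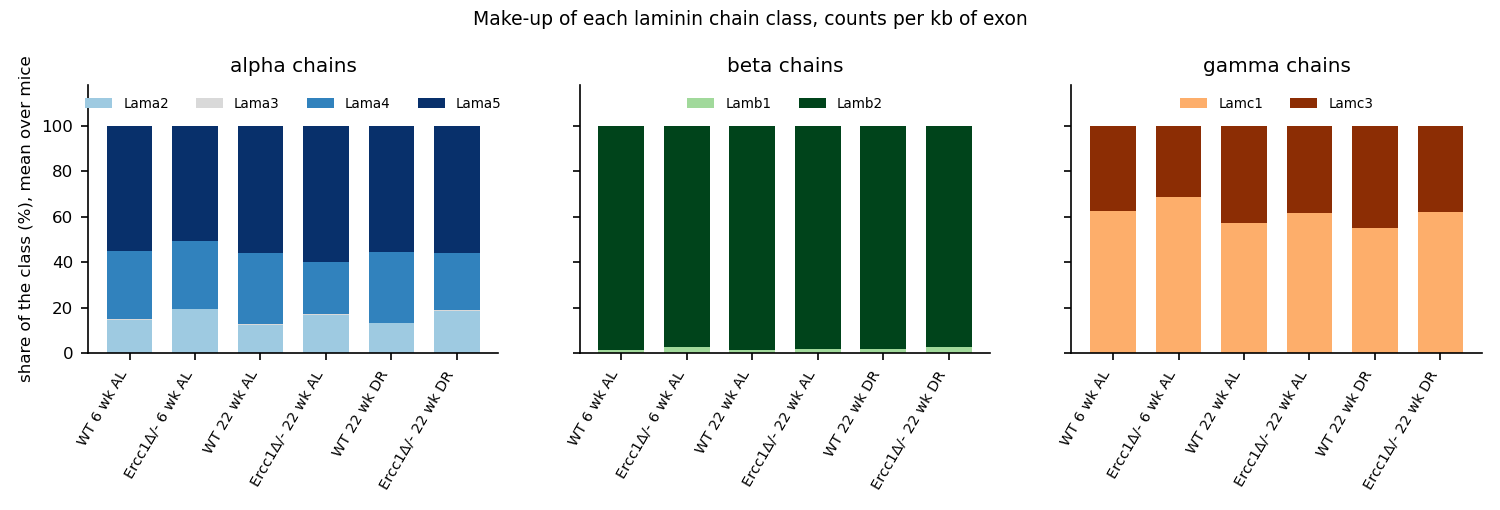
Mean share (y axis, percent) of each gene in the summed level per kilobase of the alpha, beta and gamma laminin chains, by group (x axis), with 4 or 5 mice a group. Lamb2 fills at least 97.1% of the beta chains in every group, and the Lama4 share of the alpha chains is smallest in Ercc1Δ/- mice at 22 weeks on AL, at 22.9%.

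At 6 weeks, when Bcam was already low, none of the 7 tested laminin genes was called between genotypes (a call needs an edgeR adjusted p of at most 0.05 and a fold change of at least 1.2), against 1.71% of all tested genes. Their median log2 fold change was -0.22, against 0.02 over all genes, and 5 of the 7 had an unadjusted p under 0.05, as had 12.8% of all genes. The 3 lowest log2 fold changes were those of Lamc3 (-0.40, edgeR adjusted p = 0.101), Lama5 (-0.34, edgeR adjusted p = 0.227) and Lama4 (-0.24, edgeR adjusted p = 0.276). Lamb1 went the other way, at 0.54 (edgeR adjusted p = 0.316), and Lamc1 was at -0.00. Lamb1 (0.72, edgeR adjusted p = 0.0469) and Lama5 (-0.47, edgeR adjusted p = 0.0489) were called without Ercc1Δ/- sample 008, and Lamc3 (-0.51, edgeR adjusted p = 0.0275) without Ercc1Δ/- sample 015. DESeq2 called Lamc3 (adjusted p = 0.0458).

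At 22 weeks on AL, 2 of the 7 laminin genes were called lower in Ercc1Δ/- mice and none higher, against 6.16% of all genes called lower. These were Lama4 and Lamb2. The median over the 7 genes was -0.24, against 0.03 over all genes. On DR, 4 of the 7 were called lower and none higher (Lama4, Lamb2, Lama5 and Lamc3), against 7.03% of all genes, with a median of -0.41 against 0.00. The AL and DR comparisons had no mice in common in their compared groups, although the AL mice of 22 weeks were in both fits.

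**Figure D3:**
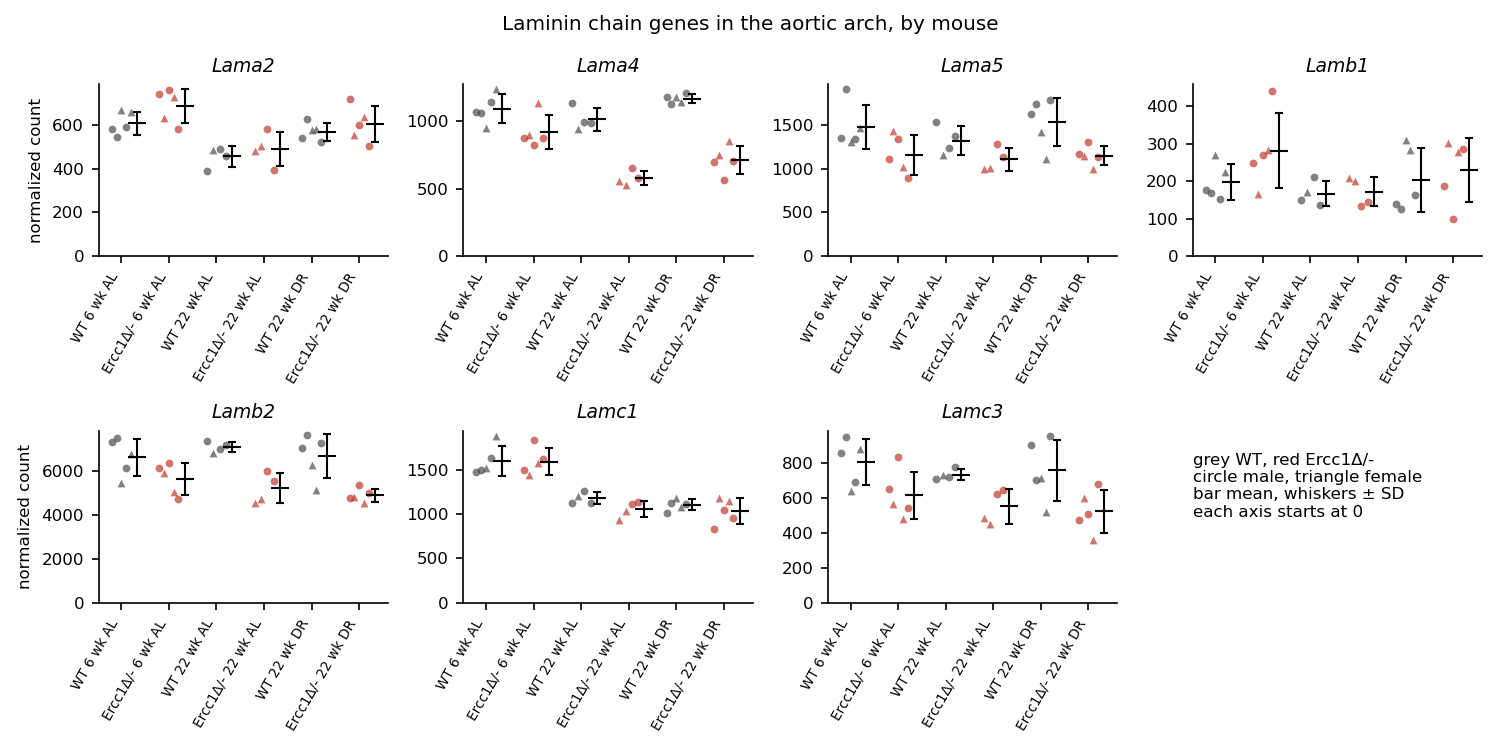
Normalized counts (y axes, linear from 0) of the 7 tested laminin genes in each of 28 mice by group (x axis), with bars for group means and error bars for the SD. Lama4 is lowest in Ercc1Δ/- mice at 22 weeks on AL (530 to 656), and Lama3, which was not tested, is not shown.

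Lama4 had the lowest log2 fold changes between genotypes among the laminin genes at 22 weeks, on AL and on DR. At 22 weeks on AL the WT mice had 945, 984, 991 and 1139 normalized counts of Lama4, and the Ercc1Δ/- mice had 530, 555, 580 and 656. On DR the WT mice had 1129, 1144, 1178, 1180.1 and 1208, and the Ercc1Δ/- mice had 566, 701, 705, 748 and 854. The genotypes did not overlap on either diet. Lama4 fell to 56.8% of WT on AL (log2 fold change -0.82, SE 0.11, edgeR adjusted p = 4.74e-05) and to 61.4% on DR (-0.70, SE 0.092, edgeR adjusted p = 1.06e-05). At 6 weeks WT mice had 948 to 1237 and Ercc1Δ/- mice 822, 873, 873, 897 and 1136, which overlapped. With age, Lama4 fell in Ercc1Δ/- mice to 62.4% of its level at 6 weeks (-0.68, SE 0.11, edgeR adjusted p = 0.000286, ranges apart) and differed by -0.10 in WT (edgeR adjusted p = 0.877). The test of that difference between genotypes gave -0.58 (SE 0.15, edgeR adjusted p = 0.0782) and did not pass, although it did without Ercc1Δ/- sample 013 (-0.65, edgeR adjusted p = 0.0476) or WT sample 024 (-0.62, edgeR adjusted p = 0.044).

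Lamb2 encodes the main beta chain of this tissue. On AL at 22 weeks the WT mice had 6807, 6999, 7158 and 7353 normalized counts of Lamb2 and the Ercc1Δ/- mice had 4543, 4706, 5539 and 5997, with no overlap. It fell to 75.0% of WT (-0.41, SE 0.11, edgeR adjusted p = 0.0146). That call was lost without WT sample 018 (-0.38, edgeR adjusted p = 0.0699) and with 003 added (-0.34, edgeR adjusted p = 0.0741). On DR the WT mice had 5106, 6262, 7009, 7277 and 7604 and the Ercc1Δ/- mice 4513, 4742, 4813, 4963 and 5331, so that only the lowest WT mouse reached into the mutant range. Lamb2 fell there to 73.8% of WT (-0.44, SE 0.079, edgeR adjusted p = 0.000462).

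Lama5, the ligand chain of Bcam, was called lower on DR, where the WT mice had 1115, 1419, 1629, 1749 and 1786 normalized counts and the Ercc1Δ/- mice 997, 1136, 1149, 1169.5 and 1309.8. It stood at 75.3% of WT (-0.41, SE 0.087, edgeR adjusted p = 0.00212), and with 003 in the fit the adjusted p was 0.0517. On AL at 22 weeks Lama5 had 1161 to 1533 in WT and 994 to 1284 in Ercc1Δ/- mice (-0.24, edgeR adjusted p = 0.311), and the difference between its diet responses was -0.21 (edgeR adjusted p = 0.681). Its AL and DR genotype differences were therefore not shown to differ. Beside a fitted Bcam level of 45.0% of WT on AL, the fitted level of its ligand chain was 84.8% of WT.

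Lamc3, the second gamma chain, was called lower on DR, where WT mice had 518, 700, 713, 902 and 953 normalized counts and Ercc1Δ/- mice 357, 473, 509, 598 and 680. It stood at 68.7% of WT (-0.54, SE 0.14, edgeR adjusted p = 0.0115), although the ranges overlapped. This call was lost with only the compared groups in the fit (edgeR adjusted p = 0.0526) and with all samples thinned to the lowest total (-0.46, edgeR adjusted p = 0.0969). On AL at 22 weeks its ranges did not overlap (705 to 775 in WT, 449 to 647 in Ercc1Δ/- mice), but the test did not pass (-0.38, edgeR adjusted p = 0.0727), and passed without Ercc1Δ/- sample 015 of 6 weeks (-0.39, edgeR adjusted p = 0.0382), with no filter on low counts (-0.45, edgeR adjusted p = 0.0295) and with only the compared groups in the fit (-0.39, edgeR adjusted p = 0.0195).

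Lama2, Lamc1 and Lamb1 were called in none of the genotype comparisons. Lama2 differed by log2 fold changes of 0.20, 0.08 and 0.09 at 6 weeks, at 22 weeks on AL and on DR, and Lamc1 by -0.00, -0.16 and -0.10. Lamb1 differed by 0.54, 0.04 and 0.21 with a wide spread, its SD being 19.8% to 41.8% of its mean within groups. Lamb1 overlaps Dld on the opposite strand, which had 16411 counts against 5686 of Lamb1, and the strand setting of the counting is not given in the sources used here. Lama5 overlaps the end of Adrm1 in the same way, with 8218 counts of Adrm1 against 37453 of Lama5.

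**Figure D4:**
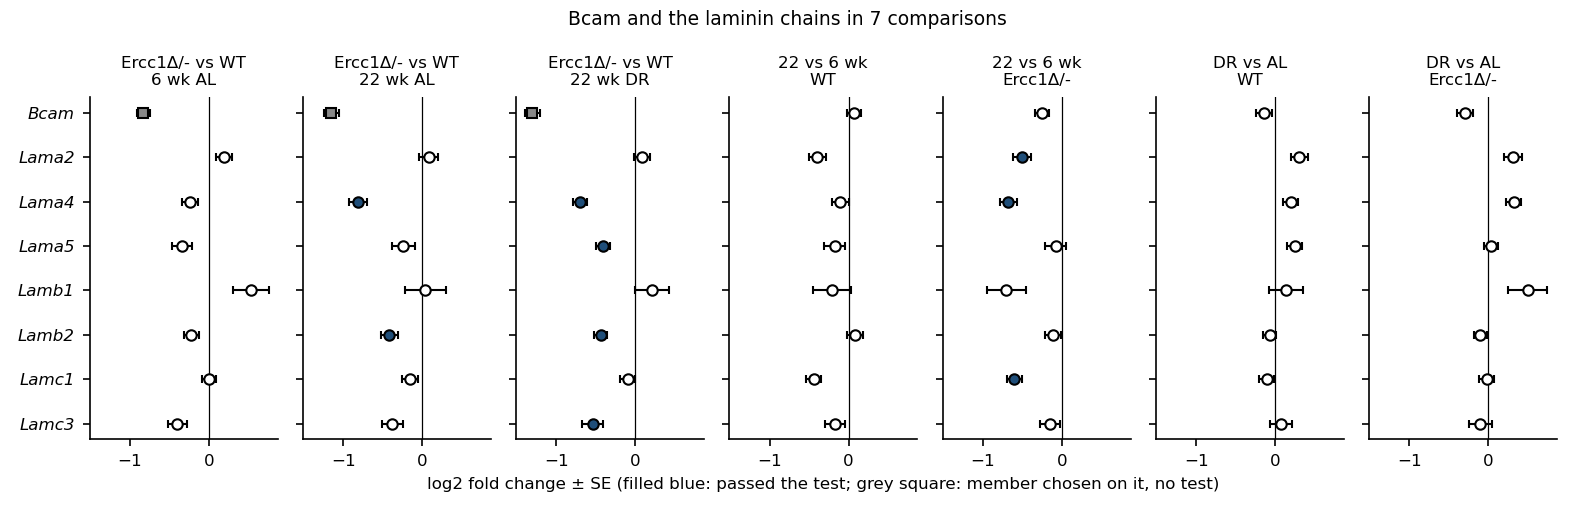
Log2 fold changes (x axis) with standard errors (bars) of the 8 tested genes in the genotype, age and diet comparisons, from the edgeR fits over 18 samples each. Bcam is lowest in all 3 genotype comparisons (-0.83, -1.15 and -1.31), and the laminin genes lie between -0.82 and 0.54.

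With age, the laminin genes that were lower were partly other ones. In Ercc1Δ/- mice on AL, 3 of the 7 were called lower at 22 than at 6 weeks (Lama4, Lamc1 and Lama2), against 2.55% of all genes, with a median of -0.51 against 0.01. Lamc1 had 1441, 1491, 1572, 1619 and 1834 normalized counts in mutants at 6 weeks and 933, 1037, 1111 and 1137 at 22 weeks. It fell to 65.9% (-0.60, SE 0.098, edgeR adjusted p = 0.000444) with no overlap, as did Lama4, against 3.38% of all genes. In WT, Lamc1 had 1469 to 1883 at 6 weeks and 1119 to 1260.5 at 22 weeks, also without overlap, but missed the threshold (-0.44, SE 0.097, edgeR adjusted p = 0.0559), which it passed without Ercc1Δ/- sample 015 or 027, both in the fit for the spread (edgeR adjusted p = 0.0411 and 0.0379). The difference between these age responses was -0.16 (edgeR adjusted p = 0.728), so Lamc1 was lower at 22 weeks in both genotypes by values not shown to differ.

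Lama2 had 580, 631, 729, 741 and 758 normalized counts in Ercc1Δ/- mice at 6 weeks and 396, 482, 504 and 583 at 22 weeks, and the highest of the latter reached just above the lowest of the former. It fell to 70.4% (-0.51, SE 0.11, edgeR adjusted p = 0.00866), a call that was lost after thinning to the lowest total (-0.40, edgeR adjusted p = 0.17). In WT it had 542 to 667 at 6 weeks and 390 to 491 at 22 weeks (-0.39, edgeR adjusted p = 0.171). None of the 7 laminin genes was called with age in WT, where 0.235% of all genes were called. The same 2 genes, Lama2 and Lamc1, had an unadjusted p under 0.05 (against 8.65% of all genes), were lower without overlap (against 2.10% of all genes) and were called by DESeq2 (adjusted p = 0.0489 and 0.00238). Lamb1 in Ercc1Δ/- mice differed by -0.70 with age (SE 0.25, edgeR adjusted p = 0.132) and by -0.92 without sample 008 (edgeR adjusted p = 0.0115), and DESeq2 called it (-0.73, adjusted p = 0.036).

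DR and AL mice of 22 weeks were compared within each genotype. None of the 8 tested genes was called by edgeR or by DESeq2, against 1.30% of all genes in WT and 1.64% in Ercc1Δ/- mice by edgeR. Of the 7 laminin genes, 3 in WT and 2 in Ercc1Δ/- mice had an unadjusted p under 0.05, as had 12.8% and 15.0% of all genes. The lowest adjusted p among them was that of Lama4 in Ercc1Δ/- mice, which had 530 to 656 normalized counts on AL and 566 to 854 on DR (0.32, edgeR adjusted p = 0.105), and which was called without sample 016, a mouse on DR (0.39, edgeR adjusted p = 0.0307). In WT, Lama2 was higher on DR than on AL without overlap (522 to 628 against 390 to 491, log2 fold change 0.31, edgeR adjusted p = 0.175), which was so for 2.46% of all genes. No laminin gene passed the test of the difference between genotypes in age response (0.842% of all genes did) or in diet response (0.0971% did) by edgeR, and the unadjusted p was under 0.05 for 1 and 0 of the 7, against 11.4% and 8.71% of all genes. DESeq2 called Lama4 for the age response (adjusted p = 0.02) and none for the diet response.

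Ratios of chains within a sample do not depend on the scaling of libraries. The log2 ratio of Lama5 to Lama4 normalized counts was 0.93 ± 0.062 (SD, n = 4) in Ercc1Δ/- mice and 0.38 ± 0.088 (n = 4) in WT at 22 weeks on AL, a difference of 0.55 with no overlap. A two-sided exact permutation test gave p = 0.0286, the smallest that 4 against 4 mice allow, and 0.2 after adjustment over the 21 tests of 3 ratios. The same ratio was 0.32 ± 0.38 (n = 5) in Ercc1Δ/- mice at 6 weeks, lower than at 22 weeks in every mouse (exact permutation p = 0.0238, adjusted p = 0.2). The ratio of Lama5 to Lamc1 also differed with age in mutants, at -0.47 against 0.07 (exact permutation p = 0.0238, adjusted p = 0.2), while for the ratio of Lamb2 to Lamb1 no p was under 0.05. None of the 21 tests passed after adjustment.

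The other receptors and partners of laminin were counted from lists in which the 9 genes above are not included. These lists were chosen with earlier results of these data known, so their counts are not independent of the data. Of 12 other laminin receptors, 3 were called lower in Ercc1Δ/- mice at 6 weeks, against 1.13% of all genes, and none higher. These were Mcam, a surface adhesion molecule of smooth muscle and endothelium that binds the Lama4 chain (log2 fold change -0.75), and the integrin alpha chains Itga3 (-0.62) and Itga7 (-0.55). At 22 weeks on AL, Mcam (-1.21), Itga3 (-0.49) and Dag1, which encodes dystroglycan (-0.38), were called lower, 3 of 12 against 6.16% of all genes. On DR, Mcam (-0.87), Itga3 (-0.57), Itga7 (-0.55) and the integrin beta chain Itgb1 (-0.29) were called lower, 4 of 12 against 7.03% of all genes, and Itga6 higher (1.69). The median over the 12 receptors stayed near that of all genes (-0.07, 0.03 and -0.06). Mcam was also the receptor called with DR in Ercc1Δ/- mice, where it was higher on DR than on AL (0.41, edgeR adjusted p = 0.0376), and Sdc1, a syndecan, was called lower on DR in WT (-0.55).

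Of 15 genes of the dystrophin-glycoprotein complex, which ties dystroglycan to the cytoskeleton, 3, 6 and 10 were called lower in Ercc1Δ/- mice at 6 weeks, at 22 weeks on AL and on DR, and none higher, with medians of -0.15, -0.42 and -0.41 on the log2 scale. The shares of all genes called lower in these comparisons were 1.13%, 6.16% and 7.03%. Dmd (-0.66, -0.66 and -0.73), Utrn (-0.53, -0.53 and -0.44) and Dtna (-0.72, -0.81 and -0.65), which encode dystrophin, utrophin and dystrobrevin, were called in all 3 comparisons. Sntb1, which encodes a syntrophin, was called on AL at 22 weeks (-1.03). With age, Cav1, which encodes the coat protein of caveolae, was called lower in Ercc1Δ/- mice (-0.43), and with DR Sntb1 was called lower in WT (-0.65). Of 12 genes that add the laminin-binding sugars to dystroglycan, 10 were tested (medians -0.03, -0.17 and -0.22), and B3galnt2 was called lower at 22 weeks on AL (-0.72) and on DR (-0.45), and B3galnt2 (-0.60) and Pomgnt1 (-0.42) with age in Ercc1Δ/- mice.

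Of 16 other basement membrane genes, 1, 9 and 8 were called lower in Ercc1Δ/- mice at 6 weeks, at 22 weeks on AL and on DR, against the same 1.13%, 6.16% and 7.03% of all genes, with medians of -0.06, -0.43 and -0.22. Col18a1, a basement membrane collagen, was called in all 3 comparisons (-0.66, -0.72 and -0.96). Col4a5 (-0.65 and -0.49), Col15a1 (-0.90 and -1.10) and Hspg2, which encodes perlecan (-0.66 and -0.54), were called on both diets at 22 weeks, and Tinagl1 was called on DR (-0.68). Col4a3 (0.59) and Col4a4 (0.53), a pair of type IV collagen chains that assemble together, were called higher on DR. With age, 4 of the 16 were called lower in WT and 11 in Ercc1Δ/- mice, against 0.138% and 2.55% of all genes called lower. Sparc fell by 1.10 in WT and by 1.67 in Ercc1Δ/- mice on the log2 scale, Col15a1 by 0.73 and 1.37, and Col4a5 by 0.71 and 1.41. Col4a2 was also called in WT (-0.52) and Pxdn, a peroxidase that cross-links type IV collagen, in Ercc1Δ/- mice (-1.11). Col4a5 (-0.70, edgeR adjusted p = 0.0100) and Pxdn (-0.89, edgeR adjusted p = 0.00790), passed the test of the difference between genotypes in age response. With DR, Nid1 (-0.45) and Pxdn (-0.48) were called lower in WT and none in Ercc1Δ/- mice.

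Bcam and Ercc1 lie on the same chromosome, so the values of the genes around them are given. Within 1 Mb of Ercc1, 39 genes were tested. Leaving out Bcam and Ercc1, 3 of 37 (8.11%) were called between genotypes at 6 weeks, 10 (27.0%) at 22 weeks on AL and 8 (21.6%) on DR, against 1.71%, 12.0% and 13.0% of all genes. All 3 calls at 6 weeks were lower. Both directions occurred at 22 weeks, with 6 lower and 4 higher on AL and 6 lower and 2 higher on DR. Eml2 (-0.40, -0.75 and -0.71), which encodes a microtubule-binding protein, and Ercc2 (-0.55, -0.90 and -0.76), which encodes a DNA helicase of nucleotide excision repair, were called in all 3 comparisons. Between Ercc1 and Bcam, 1, 5 and 3 of 15 tested genes were called. Nectin2, an adhesion gene 360 kb from Ercc1, had log2 fold changes of 0.55, 0.62 and 0.78 (called on DR, edgeR adjusted p = 0.0113), and Apoe was called higher on AL at 22 weeks (0.67), as were Apoc1 (2.17) and Tomm40 (0.52), while Mark4 was called lower (-0.45) and Klc3 lower on DR (-1.34). On the far side of Ercc1, Fosb was called at 6 weeks (-2.19), and Vasp (-0.75 and -0.81) and Dmpk (-0.60 and -0.80) on both diets at 22 weeks. Of the 15 genes between Ercc1 and Bcam, 1 was called lower and 0 higher at 6 weeks. At 22 weeks 2 were called lower and 3 higher on AL, and 2 lower and 1 higher on DR. Low Ercc1 and other inherited sequence linked to the Ercc1 alleles cannot be told apart in this design.

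**Figure D5:**
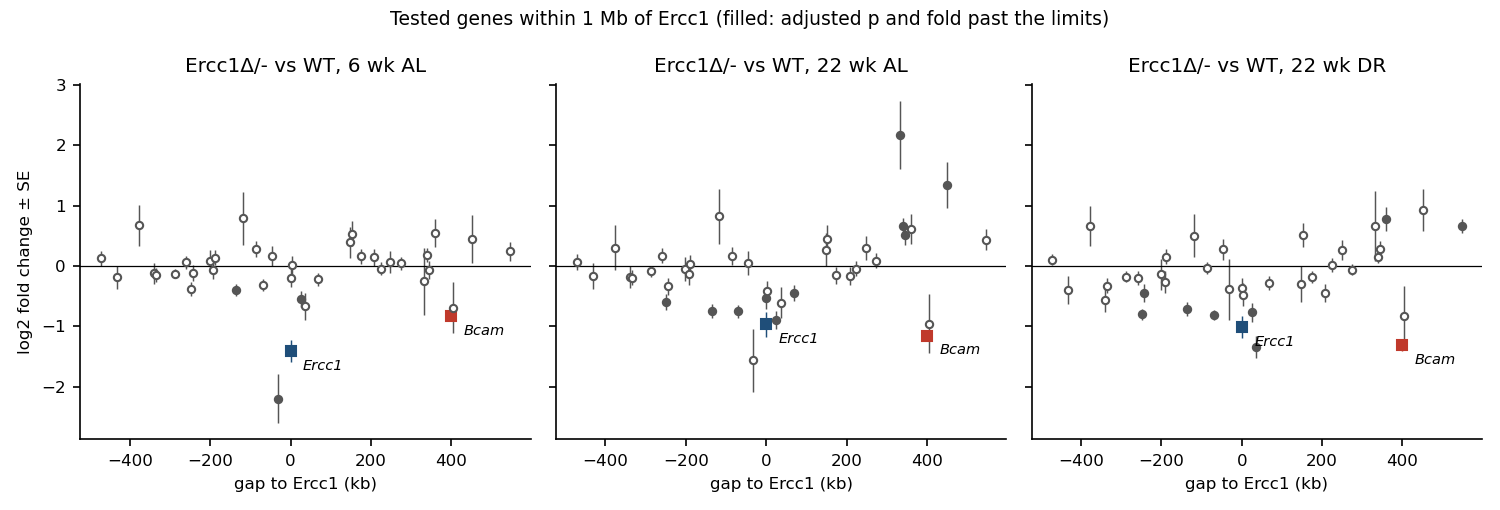
Log2 fold changes between Ercc1Δ/- and WT mice (y axis) of the 39 tested genes within 1 Mb of Ercc1 by their distance from it in kb (x axis), for the 3 genotype comparisons, with Ercc1 and Bcam marked. Bcam, about 400 kb away, is at -0.83, -1.15 and -1.31, and genes nearer to Ercc1 lie on both sides of 0.

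Across the 28 samples, the genes whose log2 expression was most like that of Bcam were Jph2 (Pearson's r = 0.956), Cdh13 (0.954), Rasl12 (0.952), Cspg4 (0.946) and Gm13889 (0.937). These values hold the genotype difference, as the samples fall into 2 genotypes. After centring within the 6 groups the most alike were Speg (0.862), Camta2 (0.833), Kcnh2 (0.825), Smtn (0.825) and Rai1 (0.813), of which Smtn is on the smooth muscle marker list. Among the laminin genes the centred values were 0.756 for Lamb2, 0.666 for Lama5, 0.565 for Lamc3, 0.303 for Lamc1, 0.111 for Lama4, -0.151 for Lama2 and -0.340 for Lamb1. Lama4 had the lowest genotype log2 fold changes among the laminin genes at the later age, on AL and on DR. Within groups, its level varied little with that of Bcam from mouse to mouse. Lama5 and Lamb2 had a centred r of 0.844, and Lama5 and Lamb1 one of -0.695. All of these are descriptions over 28 samples that share library depth and tissue makeup.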

How the data were processed

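RNA from perfused aortic arches was sequenced as directional 150 bp paired reads with unique molecular identifiers. The authors aligned the reads with STAR 2.7.10a to mm39 (GRCm39), then removed duplicates with UMI-tools 1.1.2 and counted the reads over whole gene bodies with HTSeq 2.0.2. They deposited raw counts per gene and sample. The 5 summary lines of HTSeq (12.6% to 18.7% of reads) were kept out of the tests. A symbol was found for 56017 genes in a GENCODE annotation of GRCm39 later than the study's. Members and lists were chosen with earlier results of these data known.

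Genes with over 10 counts in over 10 of the 28 samples were tested with edgeR 4.0.16 (R 4.3.3; TMM, quasi-likelihood F test, robust), with group and sex as terms, in a fit of 18 AL samples (genotype, age) and a fit of 18 samples of 22 weeks (diet, genotype on DR). P-values were adjusted over 12353 genes by Benjamini-Hochberg. A gene was called at an adjusted p no higher than 0.05 with a fold change of 1.2 or more, an interaction by the adjusted p alone. To give normalized counts, counts were divided by the TMM-scaled library size and multiplied by 3683502, the mean over the 28 samples. Log2 ratios of normalized counts were compared by exact permutation. The text names all members, other laminin chains, list genes called (at most 4 a comparison), the 5 genes most like Bcam by each measure and called neighbours of Ercc1. Col4a3, Col4a4, Utrn on AL at 22 weeks and Col4a5 on DR fall outside this rule and were named after their values were seen. The tests were checked on simulated data. Alternatives were RLE factors, DESeq2 1.42.0, no filter, sample 003 added, no sex term, other samples in the fit, thinning to 921167 counts, a pseudocount of 1 for ratios and leaving out each sample. Leaving out samples under 1000000 counts and the earlier dispersion method of edgeR were added after the data were seen. The p-values measure the spread between these samples. Some items that the naming rule covers are not reported here.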

Additional observations from a re-analysis of the deposited data

Results flagged for a closer look

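In 2 of the 54 sets of 4 or 5 mice (9 genes in 6 groups), 1 mouse stood far from the others of its group (Dixon's test at the 95% level), where chance gives 2.7 such sets. Lama4 was 1136 normalized counts in the highest Ercc1Δ/- mouse of 6 weeks (sample 023), with 897 in the next, a gap of 0.762 of the range of the group. Lama5 was 1917 in the highest WT mouse of 6 weeks (sample 009), with 1468 in the next, a gap of 0.744 of the range.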

How the results depend on the processing

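No value reversed its direction in a called comparison under any alternative. The log2 fold change of Bcam between genotypes, apart from leaving out single samples, ran from -0.86 to -0.83 at 6 weeks, from -1.22 to -1.05 at 22 weeks on AL and from -1.36 to -1.30 on DR. Leaving Bcam out wherever its genotype values enter, 0 genes were called between genotypes at 6 weeks, 2 at 22 weeks on AL, 4 on DR, 3 with age in Ercc1Δ/- mice, and 0 with age in WT, with diet and in both interactions. DESeq2 called 1 at 6 weeks (Lamc3, adjusted p = 0.0458), 2 with age in WT (Lamc1, adjusted p = 0.00238, and Lama2, adjusted p = 0.0489), Lamb1 with age in Ercc1Δ/- mice (adjusted p = 0.036) and 1 for genotype by age (Lama4, adjusted p = 0.02). Without the filter on low counts, and with all 28 samples in 1 fit, 1 was called with age in WT (Lamc1) and 1 for genotype by age (Lama4). With 003 added, 1 was called with age in WT (Lamc1) and 1 between genotypes at 22 weeks on AL (Lama4). Leaving out each sample in turn gave 0 to 2 calls at 6 weeks, 1 to 3 at 22 weeks on AL, 4 on DR, 0 to 1 with age in WT, 3 to 4 with age in Ercc1Δ/- mice, 0 with diet in WT, 0 to 1 with diet in Ercc1Δ/- mice, 0 to 1 for genotype by age and 0 for genotype by diet. The cause of these changes was not tested. No ratio test passed adjustment under any alternative run.

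Over all genes, leaving out 1 sample gave 101 to 227 calls between genotypes at 6 weeks, 934 to 1693 at 22 weeks on AL, 1170 to 1635 on DR, 8 to 56 with age in WT, 322 to 748 with age in Ercc1Δ/- mice, 46 to 204 with diet in WT, 78 to 270 with diet in Ercc1Δ/- mice, 55 to 134 for genotype by age and 2 to 17 for genotype by diet. At 6 weeks 211 genes were called by edgeR, 378 by DESeq2, 121 with only the compared groups, 126 after thinning and 127 without the samples under 1000000 counts. At 22 weeks 1486 were called on AL and 818 after thinning, and on DR 1601 and 1030. With age in WT 29 were called, against 106 by DESeq2, 70 without the filter and 17 without the sex term, and with age in Ercc1Δ/- mice 576 and 337 after thinning. For diet in WT the count was 161, with 49 to 310 over the other alternatives, and in Ercc1Δ/- mice 203, with 91 to 344. For genotype by age it was 104, with 62 after thinning and 191 by DESeq2, and for genotype by diet 12, with 2 to 41. Thinning discards most of the reads of deep samples. No paired analysis was possible because each mouse gave 1 sample and no sample number is shared between groups.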
